A study of Homo sapiens with 9 samples.

Results

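The lysosome and autophagy genes of HCT116 cells were followed here, 38 genes chosen by name from a list of lysosomal membrane proteins, lysosomal enzymes, proton pump subunits, autophagy factors and the transcription factors TFEB and TFE3. All 38 had a row among the 15354 genes of the table, and 38 of 38 passed the filter of 1 CPM (counts scaled to a common library total) or more in 3 or more of the 9 libraries, as did 13893 genes in all. Apart from that filter the rule used gene names and no measured value. The names were, however, chosen with earlier results of these data known. HCT116 is an established epithelial line from a human colorectal carcinoma. Cells were reverse transfected at 25 nM with a non-targeting control siRNA or with 1 of a pair of siRNAs, called siRNA A and siRNA B, against the long non-coding RNA SNHG5, and RNA was taken 36 h later. Each group had 3 libraries of poly(A) RNA, and the labels give no difference between the groups other than the siRNA.

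Lysosomes are the acidic compartments in which cells break down proteins, glycans and lipids. A proton pump, the V-ATPase, holds their lumen acidic, and heavily glycosylated membrane proteins line them. In autophagy, a double membrane carrying proteins of the ATG8 family closes around cytoplasm and then fuses with a lysosome. TFEB and TFE3 are related transcription factors known to bind the promoters of many lysosomal and autophagy genes.

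The libraries held 15566530 to 23277549 reads, so that a level of 1 CPM meant 15.6 to 23.3 reads and carried a counting error of 20.7% to 25.3%. Levels below are TMM-scaled CPM, that is, CPM divided by a factor per library from the trimmed mean of M values, and fold changes are differences of log2(TMM-scaled CPM + 1), which understate the change of low genes. In bulk RNA, a change in the number of cells that express a gene and a change in RNA per cell cannot be told apart. SNHG5 itself, the targeted RNA, was not lower in the libraries labelled with its siRNAs: it stood at 31.3, 22.1 and 25.9 TMM-scaled CPM in the control libraries, 71.5, 58.8 and 67.3 in those labelled siRNA A and 46.2, 50.3 and 46.1 in those labelled siRNA B, with log2 fold changes of 1.29 (adjusted p = 1.86e-05) and 0.83 (adjusted p = 5.90e-04), and it was higher with every setting tried. The study's own qRT-PCR of SNHG5 is not analysed here. Groups are therefore named by their labels, and a direction is that of the labelled libraries. Of the 8 epithelial markers, 7 passed the filter, and the deposited CPM of all 8 summed to 2096 to 2183 in control, 2805 to 3441 in siRNA A and 2393 to 2453 in siRNA B libraries. KRT8, KRT18 and KRT19 made up most of that sum. EPCAM had mean TMM-scaled CPM of 179, 122 and 163 in control, siRNA A and siRNA B, CDX2 had 14.2, 9.62 and 10.3, and KRT20 had 0.513, 0.165 and 0.230. In the same order VIL1 rose, with 20.9, 24.6 and 30.0, and CDH1 had 37.3, 39.9 and 30.7. Deposited CPM of the fibroblast markers summed to 18.5 to 19.7, 9.44 to 12.4 and 8.59 to 9.45 CPM with 4 of 6 markers holding a row, and leukocyte markers to at most 1.94 CPM with 4 of 7. COL1A1, the 1 fibroblast marker that passed the filter, made up almost all of that sum, with mean TMM-scaled CPM of 16.7, 11.9 and 9.23. LUM had 0 reads, and COL3A1 and PDGFRB stood at no more than 0.143 and 0.337 deposited CPM. These sums moved with the groups, and their part in the results was not tested.

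In the libraries labelled siRNA A, the ATG8 protein gene MAP1LC3B, the conjugation gene ATG12 and the pump subunit gene ATP6V1A rose furthest, while the pump subunit gene ATP6V0D1 and TFEB fell furthest. In those labelled siRNA B, ATG12 and MAP1LC3B rose furthest, and GLB1 and ATP6V0D1 fell furthest. For siRNA A against control, by limma at an adjusted p under 0.05, 16 of 38 genes (42.1%) were higher and 10 (26.3%) lower. Of all tested genes 23.9% and 27.6% were, and 12 of the 38 were not called. The median log2 fold change of the 38 was 0.25, beside −0.02 over all tested genes. In the libraries labelled siRNA B, 9 genes (23.7%) were higher and 7 (18.4%) lower, beside 15.6% and 18.3% of all tested genes, and 22 were not called. The median there was 0.05, beside 0.0043. The values of 29 of 38 genes (76.3%) did not overlap between siRNA A and control libraries, beside 59.5% of all tested genes, and those of 23 (60.5%) did not overlap between siRNA B and control, beside 47.6%. Both comparisons used the same 3 control libraries. Counts of smaller groups of genes below are to be read beside these shares of all tested genes.

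The counts rested on the scaling. TMM factors averaged 1.14 in control, 0.886 in siRNA A and 0.988 in siRNA B, and with library totals alone the median of all tested genes became −0.34 in the siRNA A comparison and −0.18 in that of siRNA B. On that scale 8 members were higher and 13 lower for siRNA A (21.1% and 34.2%, beside 9.05% and 47.0% of all tested genes), with a median of −0.11. For siRNA B, 6 were higher and 12 lower (15.8% and 31.6%, beside 6.90% and 29.7%), with a median of −0.16. The calls that held under every setting and every left-out library were 16 of 26 for siRNA A and 10 of 16 for siRNA B.

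**Figure D1:**
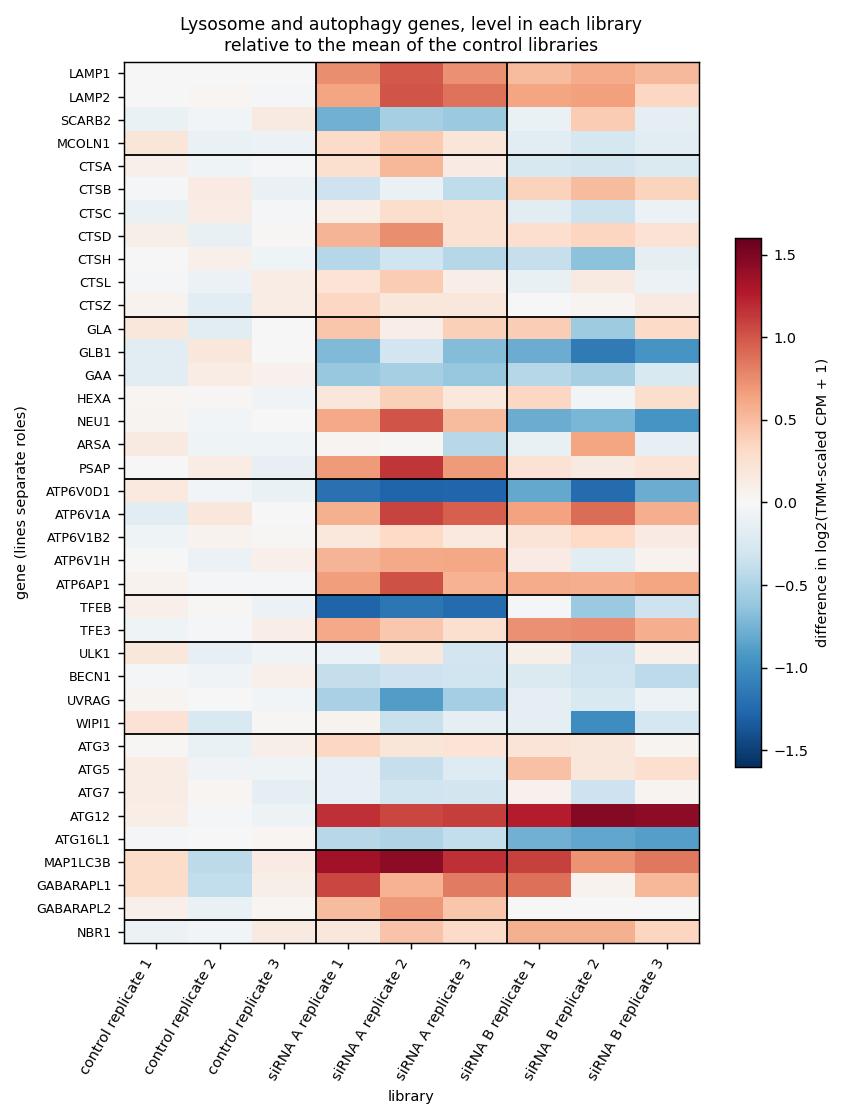
Heat map of the 38 genes (rows, grouped by role) in the 9 libraries (columns); colour gives the difference in log2(TMM-scaled CPM + 1) from the mean of the 3 control libraries. Rows that are of 1 colour across all siRNA libraries, such as ATG12 and ATP6V0D1, stand beside rows such as NEU1 that differ in colour between siRNA A and siRNA B.

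Promoters were examined because TFEB and TFE3 recognise an element built around the letters CACGTG. Of the 38 genes, 29 had an entry in the RefSeq promoter table (GRCh38.p14), a window of 300 bases with 250 before and 50 after the start, while LAMP2, CTSB, HEXA, ARSA, PSAP, ATP6V1A, ATP6V1B2, ATP6V1H and UVRAG had none. CACGTG reads the same on both strands, and 8 of 29 windows (27.6%) held it, beside 7.43% of all 27305 promoters and 10.1% of those of 10226 tested genes. TCACGTGA, which contains CACGTG and is also its own reverse complement, was in 6 windows (20.7%), beside 1.04% and 1.98%. The 6 were those of ATG3, LAMP1, ATP6V0D1, GAA, MCOLN1 and CTSA, and NEU1 and CTSD held the shorter letters alone. A match is a description of letters and not a site of binding.

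The holders of CACGTG did not move as 1 group. For siRNA A against control 5 were higher (ATG3, CTSA, CTSD, LAMP1 and NEU1, of which CTSA and ATG3 turned to values below 0 with library totals alone), 2 were lower (ATP6V0D1 and GAA) and 1, MCOLN1, was not called. For siRNA B, 1 was higher (LAMP1), 3 were lower (ATP6V0D1, GAA and NEU1) and 4 were not called. Of all tested genes, 23.9% were higher and 27.6% lower for siRNA A, and 15.6% and 18.3% for siRNA B. The 250 bases before the start are shown for 4 of the holders that differ in direction. These are LAMP1, higher with both siRNAs, GAA and ATP6V0D1, lower with both, and NEU1, higher with siRNA A and lower with siRNA B. They lie at chr13:113296989-113297238 on the + strand (LAMP1), chr17:80101331-80101580 on the + strand (GAA), chr16:67481158-67481407 on the − strand (ATP6V0D1) and chr6:31862822-31863071 on the − strand (NEU1) of GRCh38.p14. Each is read 5′ to 3′ towards the start, and capitals mark every CACGTG.
LAMP1: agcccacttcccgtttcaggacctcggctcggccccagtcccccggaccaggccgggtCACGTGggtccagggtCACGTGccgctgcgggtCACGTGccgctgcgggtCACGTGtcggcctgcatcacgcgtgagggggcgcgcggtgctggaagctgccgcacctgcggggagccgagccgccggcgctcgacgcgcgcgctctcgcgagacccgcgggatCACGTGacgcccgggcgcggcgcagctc
GAA: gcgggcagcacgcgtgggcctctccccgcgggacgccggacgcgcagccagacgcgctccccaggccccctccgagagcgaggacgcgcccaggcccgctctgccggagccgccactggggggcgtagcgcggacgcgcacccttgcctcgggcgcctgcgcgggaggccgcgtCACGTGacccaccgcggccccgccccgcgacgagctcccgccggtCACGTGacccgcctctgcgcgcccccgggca
ATP6V0D1: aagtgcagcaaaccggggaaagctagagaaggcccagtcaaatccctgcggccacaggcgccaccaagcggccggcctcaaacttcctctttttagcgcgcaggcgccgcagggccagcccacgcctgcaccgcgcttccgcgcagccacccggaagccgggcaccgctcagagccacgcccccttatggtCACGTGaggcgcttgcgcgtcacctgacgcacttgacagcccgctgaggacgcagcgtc
NEU1: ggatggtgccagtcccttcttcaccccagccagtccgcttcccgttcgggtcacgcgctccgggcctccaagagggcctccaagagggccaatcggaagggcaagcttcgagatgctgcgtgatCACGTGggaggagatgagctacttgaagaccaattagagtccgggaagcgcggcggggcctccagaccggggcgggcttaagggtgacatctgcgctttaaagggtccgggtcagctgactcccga
The LAMP1 stretch held 5 matches, from 192 to 28 bases before the start, and that of GAA held 2. Those of ATP6V0D1 and NEU1 held 1 each, 59 and 126 bases before the start.

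Among the 4 lysosomal membrane proteins, the main structural glycoproteins LAMP1 and LAMP2 rose with both siRNAs and SCARB2 fell with siRNA A alone past the threshold. In the annotation on GRCh37 (GENCODE v44lift37), from which all gene positions below were taken, LAMP1 is ENSG00000185896.9, chr13:113951554.0-113977987.0, + strand. Values are given in the order of replicates 1 to 3. LAMP1 stood at 197, 196 and 196 TMM-scaled CPM in the control libraries, 329, 389 and 325 in those labelled siRNA A and 280.0, 296 and 282 in those labelled siRNA B. The control libraries lay close together, and all 6 siRNA libraries lay above them with no overlap between any of the groups. The log2 fold change was 0.82 ± 0.10 (± SE, adjusted p by limma = 5.16e-05) for siRNA A and 0.54 ± 0.10 (± SE, adjusted p by limma = 0.00137) for siRNA B. LAMP2 (ENSG00000005893.11, chrX:119560003.0-119603220.0, − strand), which also serves chaperone-mediated autophagy, stood at 40.1, 40.7 and 38.8 TMM-scaled CPM in the control libraries, 62.0, 81.0 and 73.6 in those labelled siRNA A and 62.4, 63.5 and 50.5 in those labelled siRNA B. Its siRNA A and siRNA B libraries overlapped each other and lay above every control library. LAMP2 changed by a log2 fold of 0.83 ± 0.12 (± SE, adjusted p by limma = 2.08e-04) for siRNA A and 0.54 ± 0.12 (± SE, adjusted p by limma = 0.00553) for siRNA B, and with library totals alone the latter was 0.33 (adjusted p = 0.0604).

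SCARB2 (ENSG00000138760.4, chr4:77079890.0-77155689.0, − strand), a receptor of the lysosomal membrane, stood at 78.3, 82.0 and 93.8 TMM-scaled CPM in the control libraries, 49.2, 58.1 and 55.5 in those labelled siRNA A and 78.4, 112 and 76.6 in those labelled siRNA B. Every siRNA A library lay below every control library, while replicate 2 of siRNA B lay above all others. Its log2 fold change was −0.63 ± 0.15 (± SE, adjusted p by limma = 0.00355) for siRNA A, and for siRNA B 0.05 with a 95% confidence interval from −0.26 to 0.37 (limma adjusted p = 0.806). MCOLN1, the lysosomal cation channel TRPML1, was called against neither control: its log2 fold changes were 0.30 (adjusted p = 0.0565) and −0.21 (adjusted p = 0.209). The former passed the threshold at 0.41 (adjusted p = 0.0222) without control replicate 1 and at 0.30 (adjusted p = 0.0454) with the replicate number as a block. The latter was called with library totals alone, at −0.41 (adjusted p = 0.0285). MCOLN1 overlaps PNPLA6 on the same strand and SCARB2 overlaps FAM47E on the other.

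Of the 7 lysosomal proteases, 2 were higher and 2 lower for siRNA A (28.6% each, beside 23.9% and 27.6% of all tested genes). For siRNA B, 1 was higher and 1 lower (14.3% each, beside 15.6% and 18.3%). The medians were 0.23 and −0.02 for siRNA A and siRNA B. CTSB (cathepsin B, ENSG00000164733.15, chr8:11700033.0-11727042.0, − strand), a cysteine protease, stood at 164, 183 and 156 TMM-scaled CPM in the control libraries, 132, 156 and 126 in those labelled siRNA A and 216, 238 and 215 in those labelled siRNA B. All siRNA B libraries lay above all others, while siRNA A replicate 2 reached into the control range. For siRNA B the log2 fold change of CTSB was 0.41 ± 0.11 (± SE, adjusted p by limma = 0.0129), with 0.36 (adjusted p = 0.0573) without control replicate 3 and 0.20 (adjusted p = 0.196) with library totals alone. For siRNA A it was −0.28 ± 0.11 (± SE, adjusted p by limma = 0.0476). That call was lost without any 1 of control replicates 1, 2 and 3, siRNA A replicates 1 and 3 and siRNA B replicates 1 and 3, with values from −0.33 to −0.22 and adjusted p from 0.0532 to 0.157, and it was lost with edgeR (adjusted p = 0.0538) and DESeq2 (adjusted p = 0.0757).

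CTSD, the main aspartic protease of lysosomes, was higher for siRNA A at 0.51 (adjusted p = 0.00504), which was 0.14 (adjusted p = 0.313) with library totals alone, and had 0.29 (adjusted p = 0.095) for siRNA B. CTSA, the carboxypeptidase that protects GLB1 and NEU1 in a shared complex, was higher for siRNA A at 0.31 (adjusted p = 0.0354), but turned to −0.06 (adjusted p = 0.669) with library totals alone. The CTSA call did not survive the loss of any 1 of control replicates 2 and 3, siRNA A replicates 1 and 2 and siRNA B replicate 1, at 0.19 to 0.33 with adjusted p from 0.0527 to 0.134. CTSA had −0.26 (adjusted p = 0.0872) for siRNA B, which without siRNA A replicate 2 was −0.26 (adjusted p = 0.0405) and with library totals alone −0.47 (adjusted p = 0.00489). CTSH, an aminopeptidase, was lower at −0.41 (adjusted p = 0.0296) for siRNA A and −0.40 (adjusted p = 0.0486) for siRNA B. Both CTSH values lay close to the threshold. For siRNA A the call was lost without any control replicate or siRNA A replicate 1 or 3 (−0.45 to −0.37, adjusted p from 0.0502 to 0.0849), and for siRNA B without any 1 library other than siRNA B replicate 3 (−0.43 to −0.27, adjusted p from 0.0505 to 0.149). The siRNA B call was also lost with edgeR, DESeq2, a pseudocount of 0.1, no filter and a fit of the groups compared alone (adjusted p from 0.0506 to 0.0721). The remaining 3 proteases were not called. CTSC, which activates serine proteases, had 0.21 (adjusted p = 0.128) and −0.20 (adjusted p = 0.174), CTSL had 0.24 (adjusted p = 0.0989) and −0.02 (adjusted p = 0.895), and the carboxypeptidase CTSZ had 0.23 (adjusted p = 0.0818) and 0.06 (adjusted p = 0.678) for siRNA A and siRNA B. With library totals alone CTSC was called lower for siRNA B, at −0.41 (adjusted p = 0.0232). DESeq2 called CTSZ higher for siRNA A, at 0.26 (adjusted p = 0.0398).

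The 7 hydrolases and activators of glycan and lipid breakdown gave 2 higher and 2 lower for siRNA A (28.6% each, beside 23.9% and 27.6% of all tested genes). For siRNA B they gave 0 higher and 3 lower (0% and 42.9%, beside 15.6% and 18.3%). PSAP (ENSG00000197746.8, chr10:73576055.0-73611008.0, − strand) encodes prosaposin, which is cut into the activators of sphingolipid hydrolases. PSAP stood at 302, 327 and 274 TMM-scaled CPM in the control libraries, 480.4, 665 and 484 in those labelled siRNA A and 354, 332 and 350.2 in those labelled siRNA B. Its siRNA A libraries were all above the others, with replicate 2 the highest, and its siRNA B libraries lay above control by a small margin with no overlap. The log2 fold change of PSAP was 0.84 ± 0.13 (± SE, adjusted p by limma = 3.23e-04) for siRNA A, and for siRNA B 0.20 with a 95% confidence interval from −0.09 to 0.49 (limma adjusted p = 0.266).

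NEU1 (ENSG00000204386.5, chr6:31825436.0-31830682.0, − strand), the lysosomal sialidase, stood at 27.4, 25.6 and 26.3 TMM-scaled CPM in the control libraries, 40.6, 54.0 and 37.9 in those labelled siRNA A and 14.8, 15.5 and 13.3 in those labelled siRNA B. The 3 groups did not overlap: siRNA A libraries were the highest, control next and siRNA B the lowest. NEU1 rose for siRNA A by a log2 fold change of 0.70 ± 0.13 (± SE, adjusted p by limma = 0.00105) and fell for siRNA B, at −0.82 ± 0.13 (± SE, adjusted p by limma = 7.47e-04). Its difference between siRNA A and siRNA B was the widest of the list, 1.53 ± 0.13 (± SE, adjusted p by limma = 1.97e-05).

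GLB1 (ENSG00000170266.10, chr3:33038101.0-33138694.0, − strand), the lysosomal beta-galactosidase, stood at 21.7, 28.1 and 24.7 TMM-scaled CPM in the control libraries, 14.7, 19.7 and 14.9 in those labelled siRNA A and 13.8, 10.7 and 12.4 in those labelled siRNA B. All siRNA libraries lay below all control libraries. Its log2 fold change was −0.57 ± 0.15 (± SE, adjusted p by limma = 0.00702) for siRNA A and −0.96 ± 0.15 (± SE, adjusted p by limma = 5.50e-04) for siRNA B. GLB1 shares its strand with the overlapping gene TMPPE, so that reads could have been split between them. GAA, the acid alpha-glucosidase that breaks down glycogen, was lower for both, at −0.58 (adjusted p = 0.00125) and −0.41 (adjusted p = 0.0158), and the siRNA B value was −0.37 without control replicate 2 or without control replicate 3 (adjusted p = 0.0527 and 0.062). GLA, the alpha-galactosidase, had 0.31 (adjusted p = 0.246) and 0.04 (adjusted p = 0.9), and for siRNA A it was called without siRNA B replicate 2 (0.31, adjusted p = 0.0472). HEXA, a subunit of beta-hexosaminidase, had 0.25 (adjusted p = 0.119) and 0.19 (adjusted p = 0.271). ARSA, the sulfatase that acts on sulfatides, had −0.13 (adjusted p = 0.64) and 0.13 (adjusted p = 0.675) on 40 to 93 reads a library.

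The 5 genes of the proton pump gave 3 higher and 1 lower for siRNA A, beside 23.9% and 27.6% of all tested genes. For siRNA B they gave 2 higher and 1 lower, beside 15.6% and 18.3%. ATP6V1A (ENSG00000114573.5, chr3:113465617.0-113530903.0, + strand), the catalytic subunit that splits ATP, stood at 39.4, 50.5 and 44.4 TMM-scaled CPM in the control libraries, 66.8, 95.6 and 87.5 in those labelled siRNA A and 70.2, 83.5 and 67.3 in those labelled siRNA B. ATP6AP1 (ENSG00000071553.12, chrX:153656979.0-153664862.0, + strand), an accessory subunit of the pump, stood at 75.7, 71.8 and 71.0 TMM-scaled CPM in the control libraries, 116, 149 and 108 in those labelled siRNA A and 111, 109.8 and 113 in those labelled siRNA B. In both genes every siRNA library lay above every control library, and the siRNA groups overlapped each other. For siRNA A and siRNA B, the log2 fold change of ATP6V1A was 0.87 ± 0.15 (± SE, adjusted p by limma = 4.74e-04) and 0.71 ± 0.15 (± SE, adjusted p by limma = 0.00327). That of ATP6AP1 was 0.75 ± 0.12 (± SE, adjusted p by limma = 3.00e-04) and 0.60 ± 0.12 (± SE, adjusted p by limma = 0.00222).

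ATP6V0D1 (ENSG00000159720.6, chr16:67471917.0-67515084.0, − strand), the d subunit that couples the membrane part of the pump to its stalk, moved the other way. It stood at 51.8, 45.0 and 43.0 TMM-scaled CPM in the control libraries, 19.8, 18.6 and 18.6 in those labelled siRNA A and 25.9, 19.3 and 26.3 in those labelled siRNA B. All 6 siRNA libraries lay well below control. Its log2 fold change was −1.25 ± 0.13 (± SE, adjusted p by limma = 2.39e-05) for siRNA A and −0.95 ± 0.13 (± SE, adjusted p by limma = 2.76e-04) for siRNA B. ATP6V1H, the regulatory H subunit, was higher for siRNA A at 0.59 (adjusted p = 9.17e-04), which was 0.23 (adjusted p = 0.133) with library totals alone, and had 0.01 (adjusted p = 0.956) for siRNA B. ATP6V1B2, a non-catalytic subunit of the ATP-splitting head, had 0.22 (adjusted p = 0.0741) and 0.22 (adjusted p = 0.0966). DESeq2 called ATP6V1B2 higher for siRNA A, at 0.25 (adjusted p = 0.0344).

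**Figure D2:**
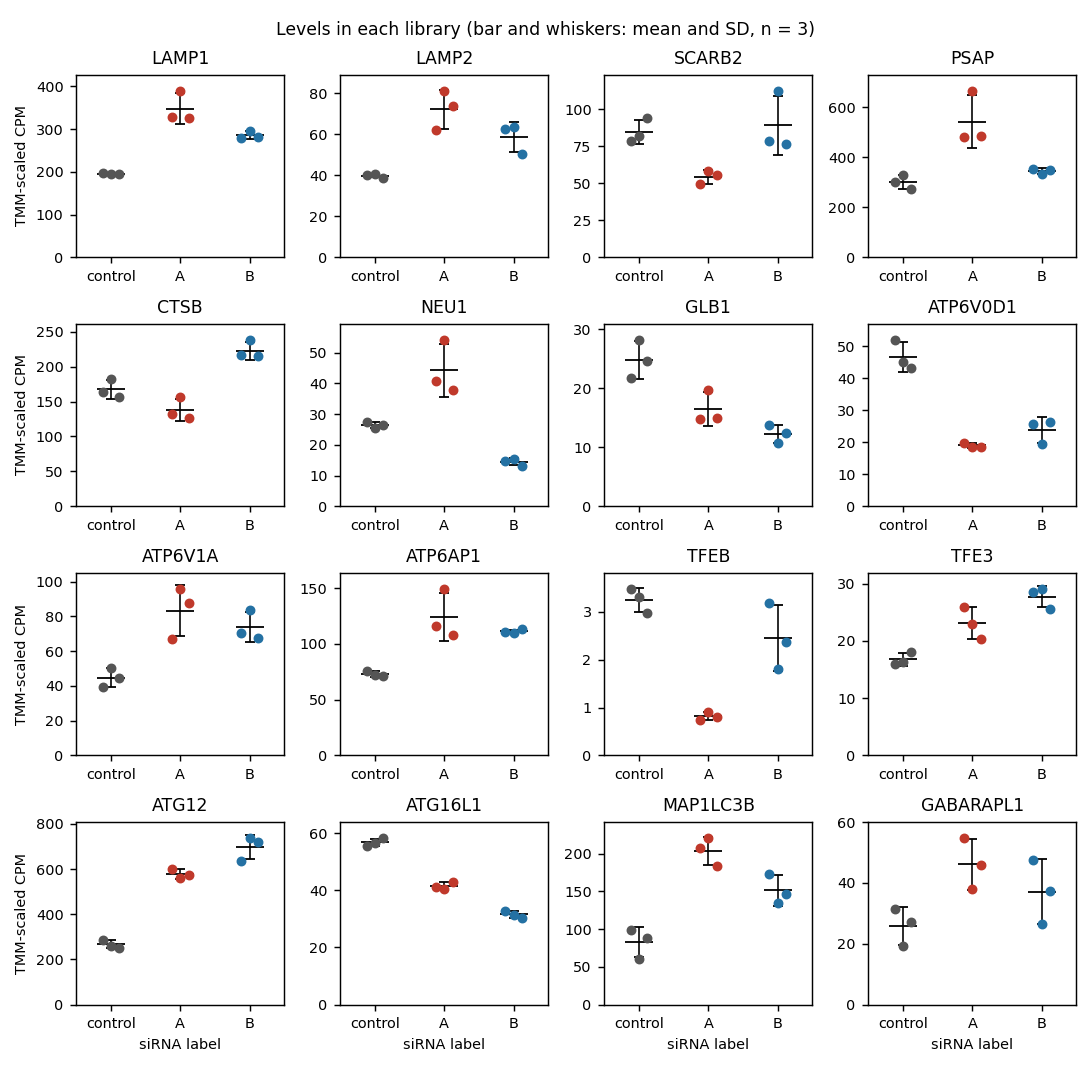
TMM-scaled CPM (y axis of each panel, from 0) of 16 genes in each library labelled control, A or B (x axis); points are libraries, and the bar and whiskers are the mean and SD of 3. LAMP1, ATP6V1A, ATP6AP1, MAP1LC3B and ATG12 stand above control in both siRNA groups, ATP6V0D1, GLB1 and ATG16L1 below it, and NEU1 above it in A and below it in B.

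The transcription factor genes TFEB and TFE3 differed from each other. TFEB (ENSG00000112561.12, chr6:41651716.0-41703997.0, − strand) stood at 3.47, 3.30 and 2.97 TMM-scaled CPM in the control libraries, 0.744, 0.907 and 0.804 in those labelled siRNA A and 3.18, 1.81 and 2.37 in those labelled siRNA B. These values rested on 68 to 87, 12 to 15 and 28 to 71 reads. The siRNA A libraries were far below all others, and the siRNA B libraries spread from well below the control range to inside it. TFEB fell for siRNA A by a log2 fold change of −1.22 ± 0.16 (± SE, adjusted p by limma = 8.64e-05), and this scale understates the change of so low a gene: the value was −1.87 with a pseudocount of 0.1 and −1.99 with edgeR on the recovered reads. For siRNA B TFEB had −0.32 with a 95% confidence interval from −0.66 to 0.03 (limma adjusted p = 0.141). The siRNA B value passed the threshold without siRNA B replicate 1 (−0.47, adjusted p = 0.0475) and with library totals alone (−0.48, adjusted p = 0.0428).

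TFE3 (ENSG00000068323.11, chrX:48886237.0-48900936.0, − strand) stood at 16.0, 16.4 and 18.0 TMM-scaled CPM in the control libraries, 25.9, 23.0 and 20.3 in those labelled siRNA A and 28.4, 29.0 and 25.6 in those labelled siRNA B. Both siRNA groups lay above control, and the siRNA B libraries mostly above the siRNA A libraries. Its log2 fold change was 0.69 ± 0.12 (± SE, adjusted p by limma = 0.00102) for siRNA B and 0.43 ± 0.12 (± SE, adjusted p by limma = 0.00907) for siRNA A, where library totals alone gave 0.08 (adjusted p = 0.604). TFEB and TFE3 were thus called in opposite directions within the siRNA A libraries on the TMM scale.

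The 13 autophagy genes gave 6 higher and 3 lower for siRNA A (46.2% and 23.1%, beside 23.9% and 27.6% of all tested genes). For siRNA B they gave 3 higher and 2 lower (23.1% and 15.4%, beside 15.6% and 18.3%). Their medians were −0.07 and 0.01 for siRNA A and siRNA B. Of the 4 that act at the start of the process and in membrane nucleation, 0 rose. For siRNA A 2 fell (50.0%, beside 27.6% of all tested genes) and for siRNA B 1 (25.0%, beside 18.3%). BECN1, a subunit of the lipid kinase complex that marks the growing membrane, was lower at −0.35 (adjusted p = 0.00877) and −0.32 (adjusted p = 0.0197). The siRNA B value of BECN1 missed the threshold without control replicate 3 (−0.28, adjusted p = 0.0807) or siRNA B replicate 3 (−0.27, adjusted p = 0.0781). UVRAG, a partner of BECN1, was lower for siRNA A at −0.65 (adjusted p = 0.00161) and had −0.16 (adjusted p = 0.387) for siRNA B. ULK1, the kinase that starts autophagy, had −0.07 with a 95% confidence interval from −0.41 to 0.28 (limma adjusted p = 0.742) for siRNA A and −0.05 (adjusted p = 0.833) for siRNA B. WIPI1, a reader of the lipid mark, had −0.15 (adjusted p = 0.568) and −0.47 (adjusted p = 0.102). With library totals alone ULK1 was called lower for siRNA A, at −0.42 (adjusted p = 0.0405), and WIPI1 for siRNA B, at −0.67 (adjusted p = 0.0292).

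The 5 genes that join ATG8 proteins to lipid included the widest rise for siRNA B. ATG12 (ENSG00000145782.8, chr5:115163897.0-115177534.0, − strand), the ubiquitin-like protein that is joined to ATG5, stood at 287, 261 and 252 TMM-scaled CPM in the control libraries, 601, 560.1 and 574 in those labelled siRNA A and 638, 736 and 719.6 in those labelled siRNA B. Every siRNA library held more than every control library, and every siRNA B library more than every siRNA A library. The log2 fold change of ATG12 was 1.12 ± 0.10 (± SE, adjusted p by limma = 9.16e-06) for siRNA A and 1.38 ± 0.10 (± SE, adjusted p by limma = 4.17e-06) for siRNA B, and the difference between them was −0.27 ± 0.10 (± SE, adjusted p by limma = 0.0558). ATG12 overlaps AP3S1 on the other strand.

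ATG16L1 (ENSG00000085978.17, chr2:234118697.0-234204320.0, + strand), the partner that brings the ATG12 and ATG5 conjugate to the membrane, stood at 55.7, 56.5 and 58.2 TMM-scaled CPM in the control libraries, 41.3, 40.4 and 43.0 in those labelled siRNA A and 32.9, 31.5 and 30.4 in those labelled siRNA B. The 3 groups did not overlap, and siRNA B libraries were the lowest. Its log2 fold change was −0.44 ± 0.09 (± SE, adjusted p by limma = 0.00166) for siRNA A and −0.83 ± 0.09 (± SE, adjusted p by limma = 5.78e-05) for siRNA B. ATG3, the enzyme that passes ATG8 proteins on to lipid, was called higher for siRNA A at 0.25 (adjusted p = 0.0463), but turned to −0.11 (adjusted p = 0.397) with library totals alone. The ATG3 call was lost without any control or siRNA A replicate and without siRNA B replicate 1 or 3, at 0.19 to 0.30 with adjusted p from 0.0518 to 0.164. ATG3 had 0.14 (adjusted p = 0.274) for siRNA B. ATG5, the acceptor of ATG12, had −0.23 (adjusted p = 0.1) for siRNA A, called with the replicate block (adjusted p = 0.044). For siRNA B, ATG5 had 0.31 (adjusted p = 0.052), and it passed the threshold with edgeR, with DESeq2 and without control replicate 1, siRNA A replicate 2 or siRNA B replicate 2 (0.36, 0.31 and 0.37 with adjusted p = 0.0443, 0.0437 and 0.0342). ATG7, the activating enzyme of both conjugation routes, had −0.25 (adjusted p = 0.128) and −0.07 (adjusted p = 0.696). With library totals alone ATG7 and ATG5 were called lower for siRNA A, at −0.60 (adjusted p = 0.00409) and −0.59 (adjusted p = 0.00217).

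All 3 genes of the ATG8 family on the list were higher for siRNA A on the TMM scale, beside 23.9% of all tested genes. For siRNA B 1 of 3 was higher, beside 15.6%. MAP1LC3B (ENSG00000140941.8, chr16:87417559.0-87438385.0, + strand), whose product LC3B coats the growing membrane, stood at 99.3, 60.1 and 88.8 TMM-scaled CPM in the control libraries, 208, 220.2 and 184 in those labelled siRNA A and 174, 134 and 146 in those labelled siRNA B. Control replicate 2 was the lowest of all libraries, and all siRNA libraries lay above all control libraries. MAP1LC3B rose by a log2 fold change of 1.32 ± 0.17 (± SE, adjusted p by limma = 8.50e-05) for siRNA A, the widest rise of the list there, and of 0.88 ± 0.17 (± SE, adjusted p by limma = 0.00207) for siRNA B.

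GABARAPL1 (ENSG00000139112.6, chr12:10365057.0-10375727.0, + strand) stood at 31.3, 19.2 and 27.2 TMM-scaled CPM in the control libraries, 54.6, 37.9 and 46.0 in those labelled siRNA A and 47.6, 26.4 and 37.2 in those labelled siRNA B. In each group replicate 2 was the lowest, and siRNA B overlapped control while siRNA A did not. For siRNA A its log2 fold change was 0.82 ± 0.22 (± SE, adjusted p by limma = 0.00867), and 0.46 (adjusted p = 0.0988) with library totals alone. For siRNA B it was 0.49 ± 0.22 (± SE, adjusted p by limma = 0.108), which was called without siRNA B replicate 2 (0.71, adjusted p = 0.023). A near copy, GABARAPL3, stood below the filter, and reads between them may have been shared. GABARAPL2 was higher for siRNA A at 0.55 (adjusted p = 9.54e-04), but had 0.19 (adjusted p = 0.147) with library totals alone, and 0.01 (adjusted p = 0.968) for siRNA B. NBR1, a receptor that ties ubiquitin-marked cargo to ATG8 proteins, was higher for siRNA B at 0.50 (adjusted p = 0.00537), which library totals alone brought to 0.29 (adjusted p = 0.0682). For siRNA A NBR1 was called higher at 0.32 (adjusted p = 0.0322) but turned to −0.05 (adjusted p = 0.748) with library totals alone. Its siRNA A call did not survive the loss of control replicate 1 or 2 or of siRNA A replicate 2 or 3, at 0.25 to 0.32 with adjusted p from 0.0668 to 0.112.

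**Figure D3:**
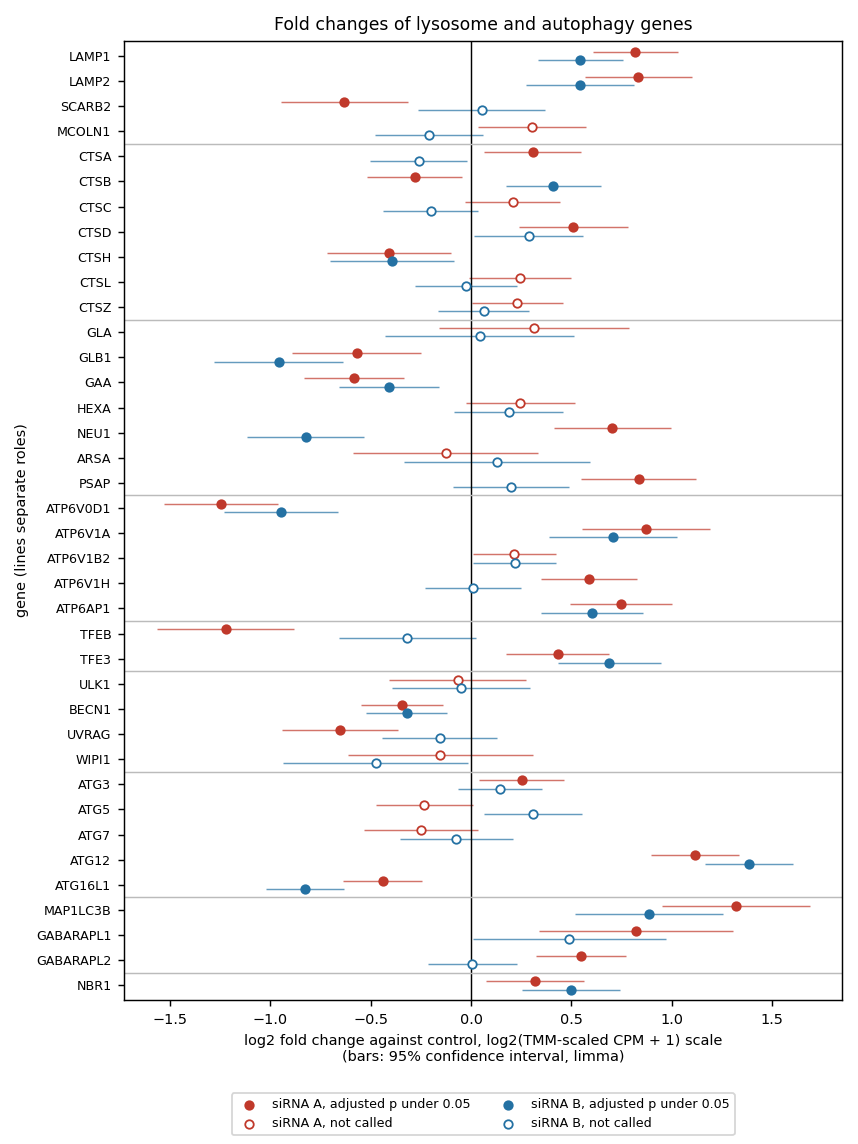
Log2 fold changes against control (x axis, log2(TMM-scaled CPM + 1) scale, with 95% confidence intervals from limma) of the 38 genes (y axis, grouped by role) for siRNA A and siRNA B; filled points have an adjusted p under 0.05. Values run from −1.25 (ATP6V0D1) to 1.32 (MAP1LC3B) for siRNA A and from −0.96 (GLB1) to 1.38 (ATG12) for siRNA B, and the filled points of CTSA, ATG3 and NBR1 for siRNA A lie below 0 when library totals alone set the scale.

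A direct contrast of the siRNAs tests where they differ. Between siRNA A and siRNA B libraries, 9 of 38 genes (23.7%) were higher in siRNA A and 5 (13.2%) lower, beside 17.6% and 19.5% of all tested genes, with a median difference of 0.16. NEU1 and PSAP led the genes higher in siRNA A, and the PSAP difference was 0.64 (adjusted p = 0.00319). ATP6V1H, CTSA, GABARAPL2, MCOLN1, CTSC, ATG16L1 and LAMP1 were also higher in siRNA A, at 0.58 (adjusted p = 0.00182), 0.57 (adjusted p = 0.00221), 0.54 (adjusted p = 0.00184), 0.52 (adjusted p = 0.00699), 0.41 (adjusted p = 0.0118), 0.39 (adjusted p = 0.00599) and 0.28 (adjusted p = 0.0428) in that order. With library totals alone CTSC had 0.26 (adjusted p = 0.131), ATG16L1 0.23 (adjusted p = 0.113) and LAMP1 0.12 (adjusted p = 0.37). The LAMP1 difference was no longer called without any 1 of control replicate 3, siRNA A replicates 1 and 2 and siRNA B replicates 1 and 3, at 0.19 to 0.31 with adjusted p from 0.0576 to 0.142.

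TFEB was lower in siRNA A than in siRNA B libraries by the widest margin, at −0.91 (adjusted p = 0.00111), or −1.44 with a pseudocount of 0.1, followed by CTSB at −0.69 (adjusted p = 5.99e-04), SCARB2 at −0.69 (adjusted p = 0.00359), ATG5 at −0.54 (adjusted p = 0.00316) and UVRAG at −0.50 (adjusted p = 0.0121). The pump gene ATP6V0D1 had a difference of −0.30 (adjusted p = 0.093), called at −0.44 (adjusted p = 0.0119) without siRNA B replicate 2. With library totals alone the differences of ATP6V0D1, ATG12, TFE3 and NBR1 were called too, at −0.45, −0.42, −0.41 and −0.33 (adjusted p = 0.0319, 0.00769, 0.0219 and 0.0369). ATP6V1B2 had −0.0005 with a 95% confidence interval from −0.21 to 0.21 (limma adjusted p = 0.997), a narrow interval around 0. The MAP1LC3B difference, 0.43 (adjusted p = 0.0629), was called with DESeq2, a fit of the groups compared alone and the replicate block (adjusted p from 0.0221 to 0.0363). It was also called without control replicate 1 or 2. That of GLB1, 0.39 (adjusted p = 0.0574), was called with DESeq2, the block and without control replicate 1 (adjusted p from 0.0384 to 0.0484). LAMP2, CTSD, CTSL and GABARAPL1 passed the threshold with the block or without 1 library. For 24 genes no difference between the siRNAs was called in the main fit, and for these an equal response is not shown.

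**Figure D4:**
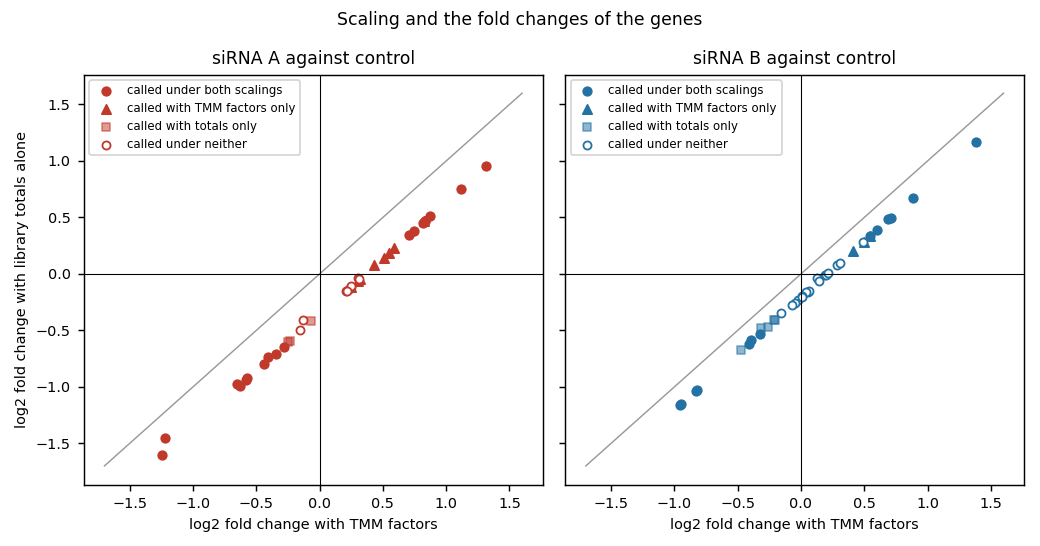
Log2 fold changes of the 38 genes with library totals alone (y axis) against those with TMM factors (x axis), in 1 panel for siRNA A and 1 for siRNA B; symbols give under which scaling a gene was called, and the grey line marks equal values. Points lie below the line in both panels, and with siRNA A the genes CTSA, ATG3 and NBR1 have values above 0 with TMM factors and of −0.06, −0.11 and −0.05 with library totals alone.

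Levels were compared between genes per kilobase of the canonical transcript. In control libraries PSAP, LAMP1 and ATG12 had the highest mean levels of the list, at 109.6, 72.6 and 66.0 TMM-scaled CPM per kilobase. ARSA, TFEB and UVRAG had the lowest, at 0.765, 1.39 and 1.78. TFE3 stood at 5.10 per kilobase in control, above TFEB. In siRNA B libraries ATG12 held the highest level of the list, 173 per kilobase, while PSAP held it in siRNA A libraries with 198.

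Genes of the same pathways beyond the 38 were taken as 5 further lists with 113 names, of which 109 passed the filter. The CTSK row was counted in these a second time under the name CTSO. For siRNA A 32 (29.4%) were higher and 30 (27.5%) lower, with a median log2 fold change of 0.01, and for siRNA B 19 (17.4%) were higher and 23 (21.1%) lower, with a median of −0.04. These shares lie near those of all tested genes, which were 23.9% and 27.6% for siRNA A and 15.6% and 18.3% for siRNA B. Of each list, the 2 widest called rises and falls against control are named, apart from those not reported here.

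Among 28 names of further hydrolases and activators, with the CTSK row counted again under the name CTSO, 6 (21.4%) were higher and 5 (17.9%) lower for siRNA A. For siRNA B, 2 (7.14%) were higher and 5 (17.9%) lower. LIPA, the lysosomal acid lipase, was lower with both siRNAs, at −0.79 (adjusted p = 2.50e-04) and −0.89 (adjusted p = 2.44e-04). MAN2B1, an alpha-mannosidase, was lower for siRNA B at −0.82 (adjusted p = 6.64e-04). ARSB, which removes sulfate from glycosaminoglycans, was higher for siRNA A at 0.78 (adjusted p = 0.0058), with 0.44 (adjusted p = 0.0676) when library totals alone set the scale. The protease LGMN was higher at 0.53 (adjusted p = 0.00435) and 0.38 (adjusted p = 0.0371), and with library totals alone had 0.17 in both (adjusted p = 0.23 and 0.284). For siRNA B LGMN was no longer called without control replicate 1, control replicate 2 or any siRNA B replicate, at 0.30 to 0.40 with adjusted p from 0.0611 to 0.147.

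Among 20 membrane and sorting genes, 6 were higher and 6 lower for siRNA A, beside 23.9% and 27.6% of all tested genes. For siRNA B, 7 were higher and 4 lower, beside 15.6% and 18.3%. CD63, a tetraspanin of late endosomes, was higher with both siRNAs, at 0.89 (adjusted p = 1.51e-04) and 0.66 (adjusted p = 0.00192). LAPTM4B was higher for siRNA A at 1.07 (adjusted p = 4.18e-05) and LAPTM4A for siRNA B at 0.67 (adjusted p = 0.00609), both of them membrane proteins of late endosomes and lysosomes. Each was also called higher with the other siRNA, but not with library totals alone. There LAPTM4A had 0.31 (adjusted p = 0.0662) for siRNA A and LAPTM4B 0.32 (adjusted p = 0.0754) for siRNA B. TMEM192 and the cation channel gene TPCN1 were lower for siRNA A, at −1.39 (adjusted p = 4.07e-05) and −1.17 (adjusted p = 2.16e-04). SLC36A1, an amino acid transporter, was lower for siRNA B at −1.79 (adjusted p = 6.46e-06), as was the sorting receptor SORT1 at −0.69 (adjusted p = 0.0168). The SORT1 call was lost without control replicate 2 or siRNA B replicate 1 or 3, at −0.63 to −0.55 with adjusted p from 0.0557 to 0.0744.

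All 10 further pump subunits were called for siRNA A, 6 higher and 4 lower, beside 23.9% and 27.6% of all tested genes. For siRNA B, 2 of the 10 were higher and 2 lower, which lies near the 15.6% and 18.3% of all tested genes. The membrane subunit ATP6V0B was higher at 0.85 (adjusted p = 0.0011) and 0.57 (adjusted p = 0.017), the latter lost without any 1 of control replicates 2 and 3 and siRNA B replicates 1 and 3 (0.47 to 0.54, adjusted p from 0.0518 to 0.0757) and with library totals alone (0.36, adjusted p = 0.1). ATP6V1G1 was higher for siRNA A at 0.81 (adjusted p = 0.00111), and ATP6V0A2 and ATP6V1D were lower, at −0.95 (adjusted p = 1.92e-04) and −0.75 (adjusted p = 1.54e-04). ATP6V0E1 was higher for siRNA B at 0.33 (adjusted p = 0.0352) and lower for siRNA A at −0.47 (adjusted p = 0.00423), with a difference of −0.80 (adjusted p = 2.69e-04). For siRNA B it was no longer called without any 1 of control replicates 2 and 3 and siRNA B replicates 1 and 3 (0.27 to 0.31, adjusted p from 0.0931 to 0.135) and with library totals alone (0.13, adjusted p = 0.466). ATP6V0A1 and ATP6AP2 were lower for siRNA B at −0.31 (adjusted p = 0.0397) and −0.30 (adjusted p = 0.0474), and neither call survived the loss of control replicate 2, control replicate 3 or siRNA B replicate 1, among others (ATP6V0A1 −0.34 to −0.24, adjusted p from 0.0549 to 0.111, also without siRNA A replicate 1 or siRNA B replicate 2; ATP6AP2 −0.35 to −0.25, adjusted p from 0.0566 to 0.164, also without control replicate 1, siRNA A replicate 1 or 3 or siRNA B replicate 3). For siRNA A, ATP6AP2 had 0.30 (adjusted p = 0.0333), which turned to −0.06 (adjusted p = 0.669) with library totals alone and was not called without control replicate 1 or 2, siRNA A replicate 2 or siRNA B replicate 1 (0.22 to 0.30, adjusted p from 0.0503 to 0.121).

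Among 30 further autophagy genes, 10 were higher and 5 lower for siRNA A, beside 23.9% and 27.6% of all tested genes. For siRNA B, 6 were higher and 7 lower, beside 15.6% and 18.3%. VMP1, a membrane protein needed to form the autophagosome, was higher with both, at 1.04 (adjusted p = 1.15e-04) and 0.95 (adjusted p = 4.16e-04). The cargo receptor TAX1BP1 was higher for siRNA A at 1.18 (adjusted p = 0.00255), and the receptor SQSTM1 (p62) for siRNA B at 1.11 (adjusted p = 5.89e-04). ATG4D, of the protease family that trims ATG8 proteins, was lower with both, at −0.91 (adjusted p = 0.00158) and −0.68 (adjusted p = 0.0142), and ATG4C of the same family was lower for siRNA A at −0.68 (adjusted p = 0.00101). AMBRA1, a regulator of BECN1, was lower for siRNA B at −1.11 (adjusted p = 6.73e-05) and had −0.25 (adjusted p = 0.11) for siRNA A, where it was called without control replicate 1 (−0.34, adjusted p = 0.0495) and with library totals alone (−0.60, adjusted p = 0.00188).

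Among 21 genes of nutrient signalling at the lysosome, 4 were higher and 10 lower for siRNA A (19.0% and 47.6%, beside 23.9% and 27.6% of all tested genes). For siRNA B, 2 were higher and 5 lower (9.52% and 23.8%, beside 15.6% and 18.3%). LAMTOR1, which anchors the Ragulator complex to the lysosome, had the widest fall of all these lists for siRNA B, at −1.96 (adjusted p = 5.78e-07), and −1.38 (adjusted p = 3.40e-06) for siRNA A. The GTPase gene RRAGD was lower at −1.29 (adjusted p = 9.37e-06) and −0.98 (adjusted p = 1.09e-04). RHEB, the GTPase that activates mTORC1, and LAMTOR2 were higher for siRNA A, at 0.70 (adjusted p = 4.97e-04) and 0.62 (adjusted p = 0.00536), the latter with 0.27 (adjusted p = 0.167) when library totals alone set the scale. RRAGC was higher for siRNA B at 0.54 (adjusted p = 0.00394). ZKSCAN3, a repressor of autophagy genes, was called higher for siRNA B at 0.36 (adjusted p = 0.0446), but no longer when any 1 library other than siRNA A replicate 2 was left out (0.28 to 0.41, adjusted p from 0.0528 to 0.127). The call was also lost with library totals alone (0.18, adjusted p = 0.336). A pseudocount of 0.1, no filter and a fit of the groups compared alone lost it too (adjusted p from 0.0512 to 0.0595). For siRNA A ZKSCAN3 was called lower, at −0.43 (adjusted p = 0.0135), a call that failed when control replicate 2 was left out (−0.39, adjusted p = 0.051) and when siRNA A replicate 1 was (−0.38, adjusted p = 0.0529). The difference of ZKSCAN3 between the siRNAs was −0.80 (adjusted p = 6.49e-04).

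Some of the 38 genes share their position with others: 26 overlap an annotated gene, 15 of them a protein-coding one, and 12 overlap none. Besides MCOLN1, GLB1, SCARB2 and ATG12, CTSD and HEXA each overlap on the same strand a protein-coding gene without a symbol (ENSG00000250644 and ENSG00000260729). The rest overlap protein-coding genes on the other strand, ATG5 with PRDM1, CTSA with NEURL2 and PLTP, WIPI1 with ARSG, CTSZ with NELFCD, GLA with RPL36A, BECN1 with CNTD1 and PSME3, MAP1LC3B with FBXO31, ATG3 with SLC35A5 and ATG7 with VGLL4. Whether strand was used in counting is not given in the sources used here, so the split of such reads is uncertain.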

How the data were processed

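RNA-seq of HCT116 cells was available as 1 table of 15354 genes in 9 libraries, read as single ends of 50 bases after oligo-dT purification. The authors deposited CPM values, that is, counts divided by the library total, with no further scaling between libraries. The submitters' processing notes name TopHat2, HTSeq and the GRCh37 (hg19) build. Annotation and strand setting are not given in the sources used here. Columns were assigned by their names, which matched 1 title each, and no column was left out.

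All values (100%, within a tolerance of 0.01) were whole multiples of 1 read, so reads and library totals were recovered. The totals were 15566530 to 23277549 reads, of which 99.9% lay in the rows. The floor of 3 reads was 0.129 to 0.193 CPM. Such errors cover counting only, since reads carried no molecular identifiers. Of the identifiers, 14871 matched a GENCODE symbol without their version.

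Values were scaled by TMM factors (edgeR 4.0.16, on the recovered reads) and tested as log2(CPM + 1) with limma 3.58.1 in R 4.3.3 (1 model of all 9 libraries, a variance trend, Benjamini-Hochberg adjustment over the 13893 genes that reached 1 CPM in 3 or more libraries, threshold 0.05). The scripts were tested on simulated data. The edgeR quasi-likelihood test and DESeq2 1.42.0 on recovered reads were alternatives, besides library totals alone, a pseudocount of 0.1, no filter, a replicate block, a fit of only the groups compared and leaving out each library. Runs with genes beyond the list were added after their values were seen. Plots and sequence scans used Python 3.11.15, numpy 2.4.6, pandas 2.3.3 and matplotlib 3.10.9.

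Libraries of a group correlated with r from 0.983 to 0.994 across genes, those of different groups from 0.950 to 0.977, and no pair agreed within sampling noise (chi-square at least 13.0 per degree of freedom). The study's methods name 3 biological replicates. Same-numbered control and siRNA A libraries deviated together across genes (r = 0.65, 0.41 and 0.13), least so in replicate 3. Those of siRNA B and control had r of 0.17, 0.44 and −0.39. Libraries of unlike numbers were not compared, so whether the numbers pair the samples is not shown. The main model used group means without pairing.

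The members and lists were chosen with earlier results of these data known. Values in each library are given for the 3 widest called changes of each division (lysosome, proton pump, autophagy) against control, genes called in opposite directions, the 5 widest called differences between the siRNAs, TFEB and TFE3. From each further list the 2 widest called rises and falls are named, except that some of the hydrolases are not reported here. Endothelial markers and the genes CTSF, CTSO and ATP6V0C are not analysed here.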

Additional observations from a re-analysis of the deposited data

Results flagged for a closer look

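Of the 38 genes, CTSB and NEU1 were called in opposite directions against control by siRNA A and siRNA B, and the direct comparison of the siRNAs was called for both. CTSB was lower in siRNA A than in siRNA B libraries, with a log2 difference of −0.69 (limma adjusted p = 5.99e-04). NEU1 was higher in siRNA A than in siRNA B libraries, with a log2 difference of 1.53 (limma adjusted p = 1.97e-05). Both differences were called under every alternative setting and without any 1 library. The CTSB call against control for siRNA A was lost under several of them. That for siRNA B was lost with library totals alone (0.20, limma adjusted p = 0.196) and without control replicate 3 (0.36, limma adjusted p = 0.0573). Both comparisons against control used the same 3 control libraries. Groups of 3 libraries are too small for a test of single libraries that stand apart.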

How the results depend on the processing

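With library totals alone, 8 members in place of 16 were higher for siRNA A (21.1%, beside 9.05% of all genes), 12 in place of 7 lower for siRNA B (31.6%, beside 29.7%) and 9 in place of 5 lower in siRNA A than in siRNA B (23.7%, beside 27.0%), and CTSA (−0.059), ATG3 (−0.11) and NBR1 (−0.047) for siRNA A, besides ATP6AP2 (−0.058) of the further pump subunits, turned below 0. By construction that scale lowers the log2 ratios of these comparisons. Leaving out 1 library gave 13 to 17 higher and 8 to 10 lower for siRNA A, 8 to 11 and 4 to 7 for siRNA B (4 without control replicate 3), and 8 to 11 and 5 to 6 between the siRNAs, and the cause of these changes was not tested. With the replicate block, whose pairing of the samples is not shown, 17 were higher and 11 lower for siRNA A, as MCOLN1 and ATG5 were added. For siRNA B, where replicate 3 deviated against that of control, the block gave 11 and 8. It added GABARAPL1 (0.49, adjusted p = 0.00203), ATG5 and WIPI1 (−0.47, adjusted p = 0.00874). Between the siRNAs the block gave 13 and 5. edgeR called 16 and 9, 10 and 6, and 9 and 5, and DESeq2 called 19 and 9, 10 and 6, and 11 and 6, in the same order. Of the alternatives, a smaller pseudocount and the count tests move TFEB from −1.22 to between −1.99 and −1.87 for siRNA A. Values near 1 CPM rest on few reads.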
